A study of Homo sapiens with 6 samples.

Results

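Notch ligands, receptors and HES genes were followed in the human neuroblastoma line SK-N-BE(2) after lentiviral delivery of a hairpin that targets MYT1 (shMYT1, 3 libraries). Cells that had received a control hairpin served as the comparison (shNC, 3 libraries). Both groups were infected for 24 h and selected with puromycin for 48 h, so every library comes from an infected, drug-selected population of the same line. The genotype label reads knockout, while the protocol describes a stable knockdown, and the cells are called a knockdown here. The 10 genes were taken by symbol, and each matched 1 Ensembl ID of the 32434 in the deposited table. They are the receptors NOTCH1, NOTCH2 and NOTCH3, the ligands DLL1, DLL3, JAG1 and JAG2, the glycosyltransferase gene LFNG, and the transcription factor genes HES1 and HES6.

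Notch receptors are activated by Delta or Jagged ligands on a neighbouring cell. Proteolytic cleavage then frees the intracellular domain, which joins the DNA-binding protein RBPJ and Mastermind coactivators and switches on HES and HEY genes. HES1 represses proneural genes and so keeps neural progenitors from differentiating, while cells that express the proneural genes present Delta ligands to their neighbours. MYT1 is a zinc-finger factor of differentiating neurons. In the mouse it has been described as a repressor of Hes1 that competes with Rbpj at the Hes1 promoter.

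The promoter of HES1 is shown because it holds the letters of both factors side by side. It is the stretch before the start of the RefSeq transcript, chr3:194135898-194136147 (GRCh38.p14, plus strand, 250 bases, 5′ to 3′). Capitals mark the RBPJ core TGGGAA and, between its copies, the consensus AAAGTTT known for MYT1.
HES1: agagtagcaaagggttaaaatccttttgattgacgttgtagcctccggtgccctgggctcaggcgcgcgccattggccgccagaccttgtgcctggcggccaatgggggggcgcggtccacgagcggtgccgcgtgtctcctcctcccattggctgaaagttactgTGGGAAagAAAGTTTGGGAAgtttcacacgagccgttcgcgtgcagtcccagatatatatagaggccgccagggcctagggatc

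With the transcript start as position 0, the first RBPJ core lay at -84 to -79, the MYT1 consensus at -76 to -70 and the second RBPJ core at -70 to -65. The consensus and the second core share 1 base. Motifs were searched on both strands of RefSeq windows of 300 bases, 250 before and 50 after each start, and 8 of the 10 genes had such a window (9 windows, since LFNG has 2). Of all 35116 windows, 24% held TGGGAA at least once and 3.8% at least 2 times, 4.28% held AAAGTTT, and 0.194% held at least 2 TGGGAA together with AAAGTTT. The last class matches what the HES1 window holds and is therefore no test of it. HES1 was the only one of the 8 genes in that class. Its window also held 4 matches to the N-box CACNAG, a site HES proteins bind, which 38% of all windows held at least once.

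Among the other windows, NOTCH1 held AAAGTTT in 2 places and NOTCH2 in 1, while each LFNG window held 1 TGGGAA. The far upstream ends of the NOTCH1 window (chr9:136546239-136546298, minus strand) and of the second LFNG window (chr7:2517613-2517672, plus strand) show these matches in capitals, read along the gene. In NOTCH1 the consensus lies on the opposite strand and therefore reads as its reverse complement.
NOTCH1: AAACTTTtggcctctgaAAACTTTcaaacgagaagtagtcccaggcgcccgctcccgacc
LFNG: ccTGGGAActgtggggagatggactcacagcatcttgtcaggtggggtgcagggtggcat

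A match of letters is a description of these windows and not a measured binding site. In the windows of NOTCH3, JAG1, JAG2 and HES6 neither TGGGAA nor AAAGTTT occurred.

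The libraries held 18.16 to 20.3 M fragments in shMYT1 and 21.08 to 21.68 M in shNC, as recovered from the FPKM (fragments per kilobase of exon, scaled to sequencing depth). MYT1 was at 4.20, 4.13 and 4.36 FPKM in shMYT1, against 5.73, 5.12 and 5.18 FPKM in shNC, a difference of -20.8% in the means (log2 fold change -0.28, limma adjusted p = 0.0102). All 8 markers of adrenergic neuroblastoma had a mean of at least 1 FPKM, and their summed level was 2510 to 2610 FPKM in shMYT1 and 2900 to 3050 FPKM in shNC, with 3 of the 8 higher and 3 lower by the limma test described below. All 6 endothelial markers averaged under 0.5 FPKM, with a sum of 0.258 to 0.379 FPKM in shMYT1 and 0.102 to 0.207 FPKM in shNC. Of 6 Schwann and glial markers 4 were analysed here and 2 reached 1 FPKM, with a sum of 2.55 to 3.26 FPKM in shMYT1 and 2.10 to 2.25 FPKM in shNC. Of 8 fibroblast and mural markers 7 did so, with a sum of 530 to 572 FPKM in shMYT1 and 527 to 559 FPKM in shNC, most of it RGS5 at 416 to 457 FPKM in shMYT1 and 366 to 394 FPKM in shNC. Within those near-equal sums 3 of the 7 were higher (PDGFRA 0.33, COL3A1 0.23 and RGS5 0.17, as log2 fold changes) and 3 lower (LUM -0.83, DCN -0.58 and COL1A1 -0.17). LUM, a matrix proteoglycan gene, was at 52.4 to 58.1 FPKM in shMYT1 and 93.7 to 102 FPKM in shNC. All 32434 IDs of the deposited table were above 0 in at least 1 library, so this holds for any marker analysed and is no sign of its cell type. The part of these markers in the Notch results was not tested. In bulk RNA, fewer cells of a type and less RNA per cell cannot be told apart.

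NOTCH3, HES1 and LFNG were higher in shMYT1 cells. NOTCH2, JAG2, DLL3 and HES6 were tested and did not pass. NOTCH1, DLL1 and JAG1 lay under the filter of a mean of 1 FPKM over the 6 libraries and were tested in a fit without it, where none passed. A gene passed at an adjusted p under 0.05 in limma, fitted to log2(FPKM + 1) across all genes with Benjamini-Hochberg adjustment. So 3 of 7 tested Notch genes passed, all higher, where 24.2% of 14106 tested genes passed, 11.9% higher and 12.3% lower. Of all calls 49.2% were higher, and 36.4% when the libraries were scaled to the same FPKM total, which moved the median of all genes to -0.035. The median log2 fold change of the 7 was -0.05, beside -0.005 for all tested genes. With 3 libraries against 3, an exact two-sided permutation test of a single gene cannot give less than p = 0.1, so calls rest on the fit across genes. The labels do not state separate cultures, and the spread behind each p-value may therefore be technical.

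**Figure D1:**
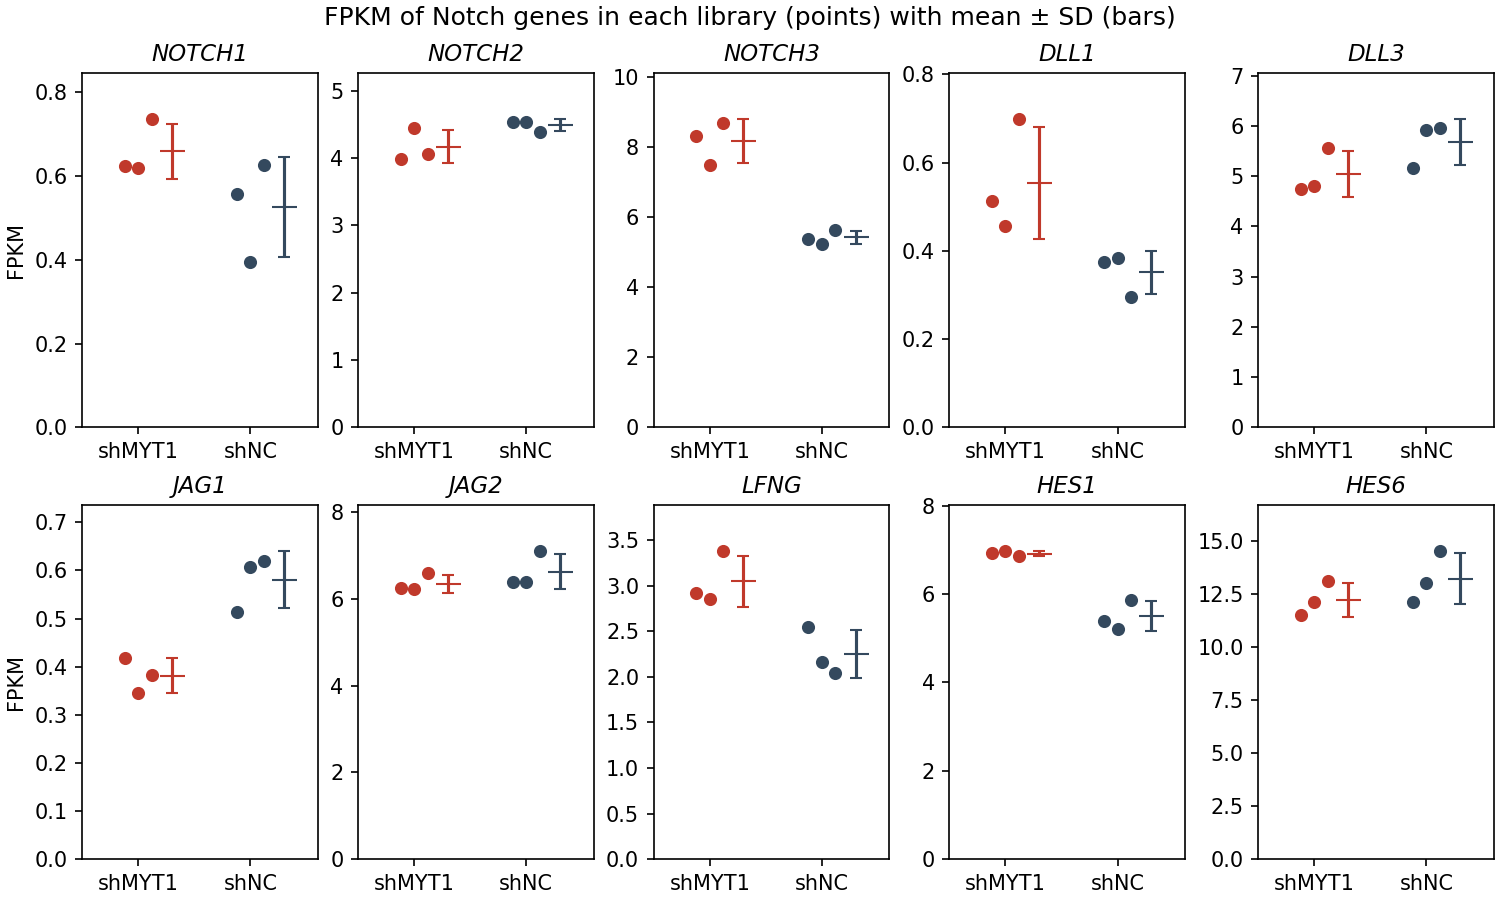
FPKM of the 10 Notch genes in each library. Each panel has its own axis from 0, points are libraries and bars the mean ± SD (n = 3 each). Values of NOTCH3, HES1, LFNG and DLL1 are higher, and those of JAG1 lower, in all 3 shMYT1 libraries than in all 3 shNC libraries, though DLL1 and JAG1 did not pass the test. Of all tested genes 42.3% showed no overlap between the groups.

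NOTCH3 was the receptor with the highest level. Among the Notch genes over the filter it had the largest log2 fold change of FPKM + 1. This receptor is known from smooth muscle and pericytes and from some tumours. NOTCH3 (ENSG00000074181, chr19:15159038-15200981, minus strand, hg38) was at 8.32, 7.49 and 8.70 FPKM in shMYT1, against 5.38, 5.24 and 5.63 FPKM in shNC. The lowest shMYT1 library stood above the highest shNC library by more than the whole range within either group. Means were 8.17 ± 0.62 FPKM in shMYT1 and 5.42 ± 0.20 FPKM in shNC (SD, n = 3 each), 1.51-fold higher, with a log2 fold change of 0.51 (SE 0.06, 95% interval 0.38 to 0.65, limma adjusted p = 0.00158). The 50 nearest tested genes on chromosome 19 had a median log2 fold change of -0.12, so NOTCH3 moved opposite to that median. With that regional median removed NOTCH3 stood at 0.64 on the log2 scale (limma adjusted p = 0.0009). Between 1033 and 1560 fragments lay behind each value.

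NOTCH2, which is the second receptor by level, did not pass. NOTCH2 (chr1:119911553-120069626, minus strand) was at 3.99, 4.44 and 4.06 FPKM in shMYT1, against 4.54, 4.53 and 4.39 FPKM in shNC. The groups overlapped, and the interval of the log2 difference ran from -0.20 to 0.03 (limma adjusted p = 0.237). NOTCH2 has near-identical partial copies, the NOTCH2NL genes, with which fragments can be confused. NOTCH2NLA, the one such copy analysed here, was at 0.0351 to 0.0961 FPKM in shMYT1 and 0.0148 to 0.0296 FPKM in shNC.

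NOTCH1 (chr9:136494433-136545786, minus strand) was low. It was at 0.624, 0.618 and 0.735 FPKM in shMYT1, against 0.556, 0.395 and 0.627 FPKM in shNC, with overlapping groups. Tested with no filter, it had a log2 fold change of 0.12 (95% interval -0.09 to 0.34, limma adjusted p = 0.515). About 86 to 137 fragments per library were counted for it, a number that is approximate because they did not come out whole.

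The balance of these 3 receptors therefore differed between the groups. NOTCH3 took 59.7 to 64.5% of the summed FPKM of the 3 receptors in shMYT1 and 51.4 to 52.9% in shNC. For NOTCH2 the share was 30.1 to 35.4% in shMYT1 and 41.2 to 44.6% in shNC. Within libraries NOTCH3 stood at 2.08, 1.69 and 2.14 times NOTCH2 in shMYT1, against 1.19, 1.16 and 1.28 times in shNC. The summed level of the 3 receptors was 12.5 to 13.5 FPKM in shMYT1 and 10.2 to 10.6 FPKM in shNC, and the sums did not overlap. NOTCH4, at a mean of 1.04 FPKM in shMYT1 and 0.996 FPKM in shNC, was left out of the shares and sums. These sums and ratios are descriptions of the same values and carry no test of their own.

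Of the ligand genes, JAG2 and DLL3 made up most of the level. JAG2, a Jagged-type ligand that activates Notch in neighbouring cells (chr14:105140981-105168824, minus strand), was at 6.25, 6.22 and 6.59 FPKM in shMYT1, against 6.40, 6.38 and 7.10 FPKM in shNC. The groups overlapped and the interval of the log2 difference was -0.17 to 0.07 (limma adjusted p = 0.498). JAG2 shares 7.3% of its exon bases with a transcript on the same strand, AL512356.1, which was not analysed here.

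DLL3 encodes a Delta-like protein that does not activate Notch on other cells and dampens it within its own cell, and it is found in neuroendocrine tumours. DLL3 (chr19:39498895-39508481, plus strand) was at 4.75, 4.80 and 5.57 FPKM in shMYT1, against 5.16, 5.91 and 5.96 FPKM in shNC. One shMYT1 library lay within the shNC range, and the gene did not pass (log2 fold change -0.15, 95% interval -0.32 to 0.03, limma adjusted p = 0.203). Its 50 nearest tested neighbours on chromosome 19 had a median of 0.25. With that regional median removed the log2 fold change of DLL3 was -0.39 and the gene passed (limma adjusted p = 0.0139). DLL3 thus lay below the median of its neighbours, while its own level did not pass as lower. The median was subtracted as a fixed value, so the p-value of that fit leaves out the spread among the neighbours.

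DLL1 and JAG1 were rare. DLL1, the Delta ligand that proneural factors induce in differentiating neurons, had 26 to 40 fragments per library in shMYT1 and 20 to 26 in shNC (chr6:170282206-170306565, minus strand). Its levels were 0.513, 0.456 and 0.698 FPKM in shMYT1, against 0.375, 0.384 and 0.296 FPKM in shNC. The groups did not overlap, yet DLL1 did not pass without the filter (log2 fold change 0.20, limma adjusted p = 0.24). A log2(FPKM + 1) scale understates changes at such levels.

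JAG1, a Jagged ligand, went the other way (chr20:10637684-10673999, minus strand). It was at 0.417, 0.345 and 0.383 FPKM in shMYT1, against 0.513, 0.608 and 0.620 FPKM in shNC, and every shMYT1 library was below every shNC library. Tested with no filter, JAG1 had -0.19 on the log2 scale (limma adjusted p = 0.158). JAG1 shares 0.8% of its exon bases with an antisense transcript, and its fragment numbers of about 57 to 121 are approximate.

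Because 3 of the 10 genes lay under the filter, all 10 were also tested on recovered fragments with limma's voom, over the 17516 genes with a mean of at least 10 fragments, a setting chosen after the data were seen. In that fit 4 of 10 passed, 3 higher and 1 lower, where 29.4% of all genes did so. JAG1 was the lower one, with a log2 fold change of -0.59 (95% interval -0.92 to -0.27, voom adjusted p = 0.00469), so its call depends on the fit. With a pseudocount of 0.1 in place of 1, JAG1 had -0.50 on the log2 scale and did not pass (limma adjusted p = 0.245). DLL1 had 0.63 (0.09 to 1.18, voom adjusted p = 0.0757) and NOTCH1 0.34 (0.03 to 0.64, voom adjusted p = 0.095), and neither passed. NOTCH3, HES1 and LFNG had 0.59, 0.33 and 0.44 in the same fit.

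**Figure D2:**
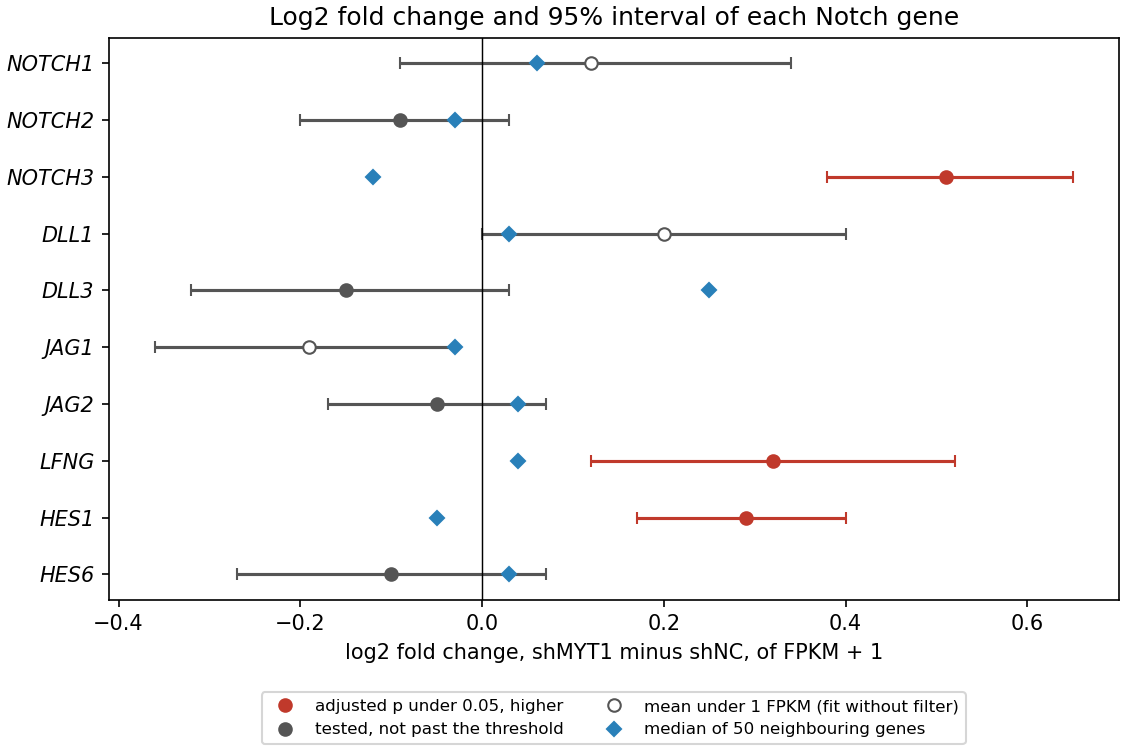
Log2 fold change of FPKM + 1 (x axis, shMYT1 minus shNC) of each Notch gene with its 95% interval. Diamonds give the median of the 50 nearest tested genes on the same chromosome. NOTCH3 is at 0.51 and the median of its neighbours at -0.12, and DLL3 is at -0.15 and the median of its neighbours at 0.25. The spread among the neighbours is not shown.

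LFNG encodes Lunatic fringe, which adds sugar to Notch and shifts its response from Jagged towards Delta ligands. LFNG (chr7:2512529-2529177, plus strand) was at 2.92, 2.86 and 3.38 FPKM in shMYT1, against 2.55, 2.16 and 2.04 FPKM in shNC. The groups did not overlap, though the gap between the nearest libraries was smaller than the range within either group. Means were 3.05 ± 0.28 FPKM in shMYT1 and 2.25 ± 0.27 FPKM in shNC (SD, n = 3 each), 1.36-fold higher (log2 fold change 0.32, SE 0.08, limma adjusted p = 0.0327). The call was lost without any one library other than shNC replicate 1, with adjusted p of 0.054 to 0.0984 in those fits, while its log2 fold change was 0.26 to 0.38 whichever library was left out. It was also lost with no filter on low values (0.32, limma adjusted p = 0.0892) and with the regional median removed (0.28, limma adjusted p = 0.063), where the log2 fold change stayed close to that reported.

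HES1, the best known Notch target, was higher in all 3 shMYT1 libraries. HES1 (ENSG00000114315, chr3:194136145-194138732, plus strand) was at 6.92, 6.97 and 6.85 FPKM in shMYT1, against 5.40, 5.22 and 5.87 FPKM in shNC. The shMYT1 libraries were nearly equal and all stood above the highest shNC library. Means were 6.91 ± 0.06 FPKM in shMYT1 and 5.50 ± 0.34 FPKM in shNC (SD, n = 3 each), 1.26-fold higher, with a log2 fold change of 0.29 (SE 0.05, 95% interval 0.17 to 0.40, limma adjusted p = 0.00647). HES1 passed in each of 16 other settings, with log2 fold changes of 0.25 to 0.33. Its promoter is the one printed above, with the MYT1 consensus between 2 RBPJ cores. These data measure RNA, and binding of either factor was not measured.

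HES6 encodes a relative of HES1 that, in mouse and Xenopus, blocks HES1 and promotes neurogenesis, and in Xenopus its expression does not depend on Notch. It had the highest level of the 10 genes in both groups (chr2:238238267-238240662, minus strand). HES6 was at 11.5, 12.1 and 13.1 FPKM in shMYT1, against 12.1, 13.0 and 14.5 FPKM in shNC. The groups overlapped, and the interval of the log2 difference was -0.27 to 0.07 (limma adjusted p = 0.36). Within libraries HES6 stood at 1.66, 1.74 and 1.91 times HES1 in shMYT1, against 2.24, 2.49 and 2.47 times in shNC, with no overlap between groups. This ratio describes the same values, of which only those of HES1 passed, and carries no test of its own.

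Groups did not overlap in 3 of the 7 tested Notch genes, 42.9%, where 42.3% of all tested genes showed no overlap. That share is near the background and is not a result about the Notch genes. Ranked by FPKM, HES6 came first in both groups. In shMYT1 it was followed by NOTCH3, HES1, JAG2, DLL3, NOTCH2 and LFNG, with no overlap between neighbours in that order. In shNC the order after HES6 was JAG2, DLL3, HES1, NOTCH3, NOTCH2 and LFNG, and there DLL3 overlapped HES1, and HES1 overlapped NOTCH3. NOTCH1, DLL1 and JAG1 came last in both groups, at 0.345 to 0.735 FPKM in shMYT1 and 0.296 to 0.627 FPKM in shNC. The ligand sum was 11.8 to 13.2 FPKM in shMYT1 and 12.4 to 14.0 FPKM in shNC, which overlapped. JAG2 took 49.8 to 52.6% of it in shMYT1 and 48.0 to 51.4% in shNC.

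The other genes of the pathway, 70 by list, were followed by role. Of 59 tested, 11 were higher, 9 lower and 39 did not pass, so 33.9% passed where 24.2% of all tested genes did. Their median log2 fold change was 0.03. Without any one library 6 to 9 were higher and 3 to 5 lower. The fewest were higher without shNC replicate 1 or 2 (6 each) and the fewest lower without shMYT1 replicate 1 (3). Fewer of all 14106 genes passed in those fits as well, 2038 to 3048 against 3420. Without shNC replicate 1, 6 of the 59 were higher and 4 lower, where 2195 of 14106 genes passed. In each of these fits the pathway share lay closer to that of all genes than with all libraries. Among other HES and HEY target genes the 2 that passed went in opposite directions. HES7, an oscillating repressor of the segmentation clock, was at 3.00, 2.27 and 2.05 FPKM in shMYT1, against 0.698, 0.561 and 0.689 FPKM in shNC. All shMYT1 libraries were far above all shNC libraries, and only the shMYT1 level carried HES7 over the filter (log2 fold change 1.05, limma adjusted p = 0.00151). Behind these values lay 68 to 112 fragments in shMYT1 and 22 to 28 in shNC.

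HEY1, a Notch target repressor, was at 13.6, 15.2 and 15.0 FPKM in shMYT1, against 21.2, 20.5 and 20.1 FPKM in shNC (log2 fold change -0.47, limma adjusted p = 0.00101). So HES1 and HEY1, both direct Notch targets, moved in opposite directions in the same libraries. HEY1 lies among genes whose median was -0.23, and with that regional median removed it had -0.24 (limma adjusted p = 0.0144). NRARP, a feedback inhibitor that Notch induces, did not pass (3.62, 3.93 and 4.74 FPKM in shMYT1, against 3.92, 4.68 and 5.09 FPKM in shNC, limma adjusted p = 0.435). HES4 was under the filter at 0.493 to 0.755 FPKM in shMYT1 and 0.81 to 1.00 FPKM in shNC.

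Among the tested pathway genes other than the targets, the largest log2 fold change was that of DLK1, a Delta-like protein without the domain that activates Notch, made by chromaffin-lineage cells. DLK1 was at 54.6, 53.9 and 56.8 FPKM in shMYT1, against 31.9, 32.8 and 35.4 FPKM in shNC (log2 fold change 0.71, limma adjusted p = 0.000208). Its level was above that of any of the 10 Notch genes. NOTCH4 did not pass (1.04 ± 0.05 FPKM in shMYT1 and 0.996 ± 0.12 FPKM in shNC, SD, n = 3 each). Of 6 genes of fringe and other glycosyltransferases 2 were higher and none lower, the xylosyltransferase genes GXYLT2 (0.28) and XXYLT1 (0.24). Of all tested genes 11.9% were higher and 12.3% lower, and no role was tested as a set. Of 6 genes of ligand endocytosis EPN1 was higher (0.36) and EPN2 lower (-0.17), where values in brackets are log2 fold changes. EPN1 lies among neighbours with a median of 0.26 and had 0.10 with the regional median removed (limma adjusted p = 0.134).

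Of 9 genes of receptor cleavage, the nicastrin gene NCSTN (0.18) and the sheddase gene ADAM17 (0.17) were higher, none were lower and 7 did not pass. Of all tested genes 24.2% passed. The shares for cleavage, trafficking and the nuclear complex lie below that and are not results about these roles. ADAM17 shares 12.3% of its exon bases with IAH1, a protein-coding gene on the opposite strand, whose reads cannot be told from its own without strand. NCSTN shares 3.1% with COPA, also on the opposite strand and at a mean of 55.1 FPKM. Antisense transcripts not analysed here cover 19.5% of the exon bases of EPN2 (AC124066.1) and 10.6% of those of AES (AC005944.1). Among 11 genes of receptor trafficking and turnover, AAK1, an endocytic kinase gene, was lower (-0.36) and DTX1, a Deltex gene, higher (0.26). In the nuclear complex 1 of 7 genes passed, SNW1 (-0.14), and RBPJ itself was at 17.1, 17.3 and 15.6 FPKM in shMYT1, against 17.5, 17.1 and 16.1 FPKM in shNC. That leaves an interval of -0.14 to 0.10 for the log2 difference of RBPJ. The corepressor genes split, with 3 of 15 higher and 5 lower, beside 11.9% higher and 12.3% lower among all tested genes. TLE4 (0.27) and TLE1 (0.20), which encode Groucho-type partners of HES proteins, were higher, while TLE2 (-0.22), AES (-0.25), CIR1 (-0.22) and SAP30 (-0.29) were lower.

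Not all of these calls were firm. Of the 18 pathway genes named as passing, 8 kept their call whichever library was left out, namely DLK1, HES7, HEY1, EPN1, AAK1, SAP30, TLE1 and TLE4. HES7 entered those fits only through its shMYT1 level, since the filter used the mean over all 6 libraries. NCSTN, ADAM17, GXYLT2, XXYLT1, EPN2, DTX1, SNW1, TLE2, AES and CIR1 lost it in at least 1 such fit. With the regional median removed, the log2 fold change and limma adjusted p were -0.08 and 0.281 for EPN2, -0.07 and 0.157 for SNW1, -0.11 and 0.296 for TLE2, -0.14 and 0.155 for AES, 0.11 and 0.163 for NCSTN, and -0.17 and 0.0691 for CIR1. These genes, like EPN1, did not pass in that fit.

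**Figure D3:**
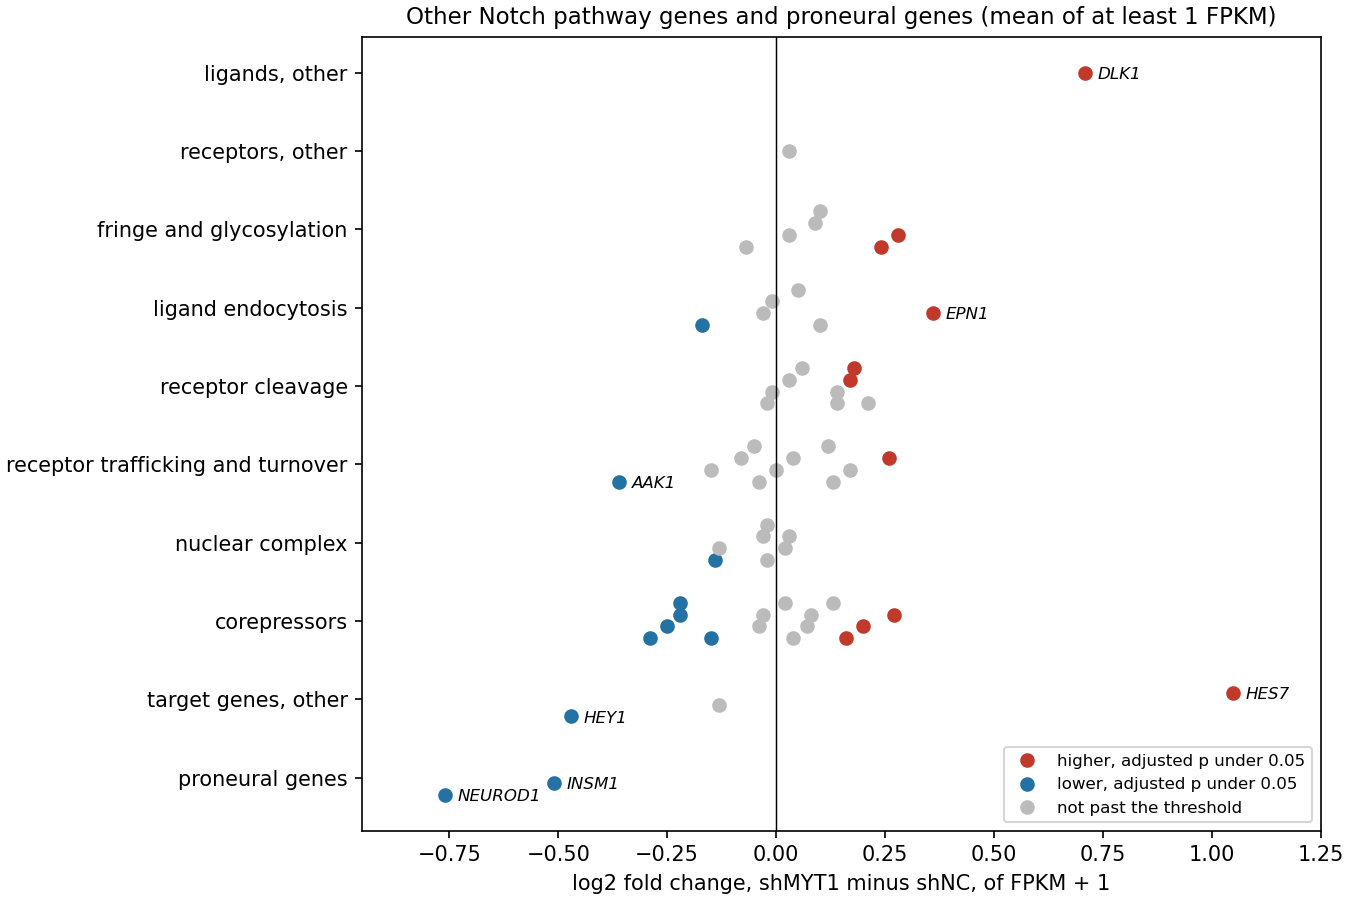
Log2 fold change of FPKM + 1 (x axis, shMYT1 minus shNC) of the other Notch pathway genes and of proneural genes, 1 point per tested gene, by role (y axis). HES7 at 1.05 and DLK1 at 0.71 stand at the high end, and HEY1 at -0.47 at the low end of the pathway genes. HES7 was over the filter only through its shMYT1 level.

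Of 6 other neurogenic genes listed, most are proneural factors, which as a class HES1 represses in neural progenitors. Of the 6, 3 were analysed here and 2 tested. Both were lower in shMYT1, where 12.3% of all tested genes were lower, and 2 genes do not describe the class. The third, NEUROG2, was under the filter at 0.0246 to 0.173 FPKM in shMYT1 and 0.0407 to 0.104 FPKM in shNC. The neuronal differentiation factor gene NEUROD1 was at 1.59, 2.03 and 2.11 FPKM in shMYT1, against 3.85, 3.80 and 4.05 FPKM in shNC (log2 fold change -0.76, limma adjusted p = 0.00131). INSM1, a zinc-finger factor gene of neuroendocrine cells, was at 3.36, 2.92 and 3.48 FPKM in shMYT1, against 4.90, 4.68 and 5.55 FPKM in shNC (log2 fold change -0.51, limma adjusted p = 0.0046). The groups did not overlap for either gene, as for 42.3% of all tested genes, and both kept their call in every alternative. NEUROD1 shares 7.1% of its exon bases with CERKL on the same strand.

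**Figure D4:**
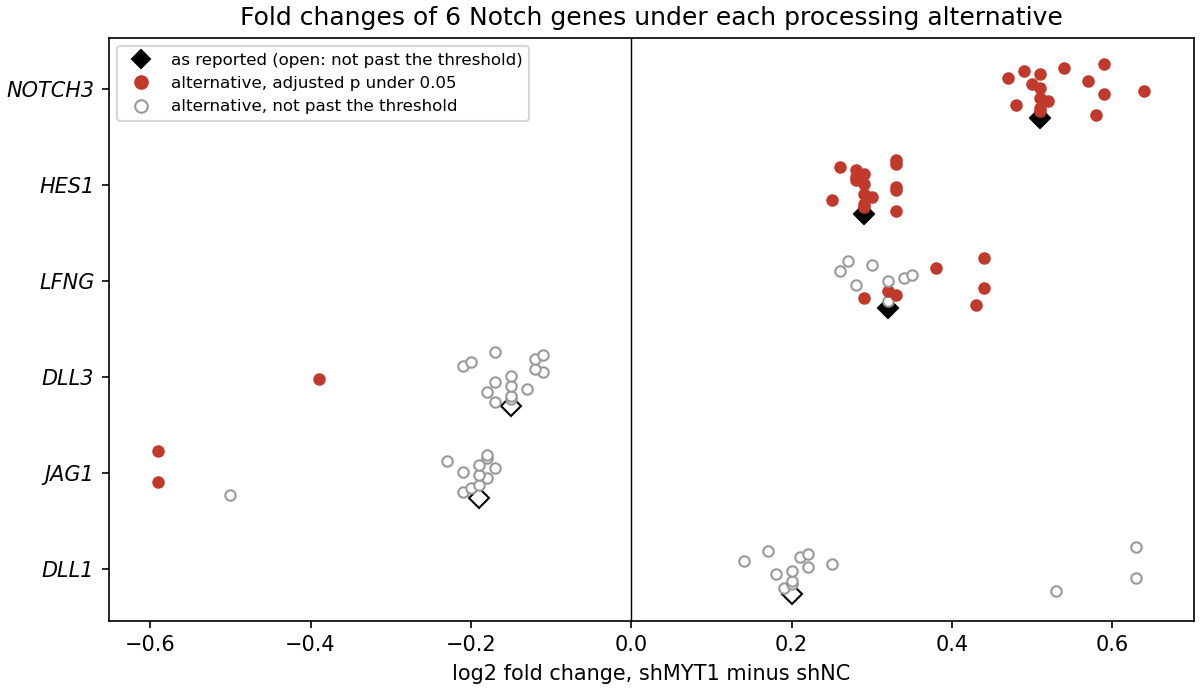
Log2 fold change (x axis, shMYT1 minus shNC) of 6 Notch genes under each processing alternative, 1 point per alternative. Filled points passed at an adjusted p under 0.05. NOTCH3 and HES1 passed in all, LFNG in part, DLL3 only with the regional median removed, and JAG1 only in the 2 fits on fragments.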

How the data were processed

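FPKM values in 6 columns, 1 for each library, were what the authors deposited, per the file headers. The submitters' processing notes name HISAT2 2.0.5, featureCounts 1.5.0-p3 and hg38. Annotation, strand setting and filters: not given in the sources used here. GENCODE 29 held 32301 of the 32434 gene IDs (99.59%) and gave symbols, coordinates and exon lengths. FPKM times exon length came out as whole fragments, within 0.01, in all 6 libraries for 95.4% of them, which gave the depths. Over the 22101 genes above 0 everywhere the libraries' median ratios differed by 7e-08%, a scaling already in the deposited values.

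The test was limma 3.58.1 under R 4.3.3, applied to log2(FPKM + 1) of the 14106 genes whose mean reached 1 FPKM, with a trend of variance on level, two-sided and adjusted over all of them. Fold changes are shMYT1 minus shNC. Scripts were tested on simulated data. Other pseudocounts, filters, scalings and variance models were tried, as were fragments as the unit, subtraction of the median of 50 neighbours, a term for the replicate number and omission of each library. The Notch genes and the lists were chosen with earlier results of these data known. All 10 Notch genes are named, and from each list of other pathway genes up to 6 passing genes, taken by absolute change, or the highest 2 by level where none passed. HES4, NRARP, RBPJ and the single fibroblast and mural markers are named beyond that rule, chosen after their values were seen. Replicates differed by more than counting noise (chi-square per gene 2.09 to 3.41) and none were merged. Some items of the lists are not reported here. Promoter sequences are from RefSeq (GRCh38.p14).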

Additional observations from a re-analysis of the deposited data

How the results depend on the processing

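Over 152 refits of single Notch genes, 141 left the gene on the same side of the threshold, 8 ended the LFNG call, 3 brought a call for DLL3 or JAG1, and 0 changed a direction. Of the tested genes, 3 Notch genes were higher as reported and 2 or 3 in each alternative. With the regional median removed, 1 Notch gene was lower (DLL3), and with voom on genes of at least 10 fragments 1 was lower (JAG1), against 0 as reported. Other pathway genes numbered 11 higher and 9 lower as reported, 7 and 4 with no filter, and 10 and 3 with the regional median removed. Over all genes 3420 of 14106 passed as reported, 2558 of 32434 with no filter and 2551 of 14106 with the regional median removed. Leaving out 1 library gave 2038 to 3048 genes past the threshold, against 3420, and the fewest, 2038, 2195 and 2196, came from omission of shNC replicate 2, shNC replicate 1 and shMYT1 replicate 1 in that order. The same fits gave 6 to 9 pathway genes higher and 3 to 5 lower, 2 to 3 Notch genes higher and 0 lower. The causes were not tested, other than that these fits use fewer libraries. Equal replicate numbers are shared by both groups. Once each gene's group mean was subtracted from its log2 values, the remaining deviations of same-numbered libraries correlated weakly (r = 0.0327, 0.0127 and 0.0426). The deviations of each library still correlated best with those of its own number, which is a hint from the data and not the design. Without that subtraction, libraries of different groups correlated at 0.979 to 0.981. With the replicate number as a block, 3381 genes passed and LFNG lost its call (limma adjusted p = 0.0696), leaving 2 Notch genes higher. With that block 12 pathway genes were higher and 6 lower. Depth limits NOTCH1, DLL1 and JAG1, with 20 to 137 fragments per library, and a change in these genes may have gone undetected.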
